A study of Mus musculus with 21 samples.

Results

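Transcript levels of 35 genes of sterol and fatty acid synthesis were followed in mouse CD8 T cell cultures under acute or repeated T cell receptor (TCR) stimulation, with and without the antioxidant N-acetylcysteine (NAC). The members were taken from a list of gene names, and all 35 were among the 13202 genes of the deposited table. They fell into 18 enzymes of the mevalonate and sterol pathway, 6 genes that sense or carry sterols, and 11 enzymes that make, elongate or desaturate fatty acids. All 35 passed the filter on low values.

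Both pathways start from cytosolic acetyl-CoA. The mevalonate arm condenses it to isoprenoid units, joins these into squalene and closes and trims the ring to cholesterol, while the fatty acid arm carboxylates it and builds palmitate, which elongases and desaturases then modify. Genes of both arms are known targets of the sterol regulatory element-binding proteins (SREBPs), which SCAP escorts out of the endoplasmic reticulum when sterol is low and which INSIG proteins hold back when sterol is plentiful. T cells are known to raise both pathways when they are activated and divide, since new membrane is needed.

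Poly(A) RNA was sequenced from 21 libraries in 7 groups of 3. Cells were isolated untouched from spleen and inguinal lymph nodes, received a first stimulus for 48 h and were harvested on day 8, with interleukin 2 in the medium of every group. Polyclonal acute and polyclonal chronic cells were from C57BL/6 mice and were first activated with plate-bound anti-CD3 and anti-CD28, after which anti-CD3 was either omitted or renewed every 48 h. OT-I acute and OT-I chronic cells carried a transgenic TCR for the ovalbumin peptide SIINFEKL, were first activated with that peptide, and were then co-cultured, without or with renewed peptide, beside B16-F10 melanoma cells that had been exposed to interferon-γ. Vehicle acute and vehicle chronic cells were C57BL/6 cells handled as the polyclonal ones with vehicle, and NAC chronic cells received renewed anti-CD3 with 10 mM NAC from 48 h on. No acute group with NAC is among these 7 groups. Separate animals or cultures are not named for the libraries, so p-values measure the spread between these libraries, which may be technical.

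Recovered read totals were between 5347355 and 25218890 per library, and the member with the fewest reads in any library still had 33 of them (Idi1, OT-I acute replicate 3). In 3 libraries genes that are otherwise near 0 were raised: polyclonal acute replicate 2, polyclonal chronic replicate 2 and OT-I acute replicate 3 had mean levels of 1.44, 0.886 and 0.963 RPKM over 753 low genes, against 0.0683 to 0.467 RPKM in the other libraries. RPKM is a read count scaled to gene length and library size. Counts of enzymes called with and without these 3 libraries are given with each comparison of 2 groups. B16-F10 is a melanoma line, and 12 melanocyte markers summed to 7992 to 8292 RPKM in OT-I acute and 4692 to 4817 RPKM in OT-I chronic libraries, against 1.54 to 80.8 RPKM in the other experiments, so OT-I values are of mixed cultures. All 7 genes listed as CD8 T cell markers (Cd8a, Cd8b1, Cd3e, Cd3d, Cd3g, Cd2 and Cd5) were present in every group. Only Cd8a and Cd8b1 among them are CD8 genes. The rest are shared with other T cells, so the sum does not measure CD8 T cells alone. These 7 genes summed to 1828 to 2009 RPKM in polyclonal acute and 1381 to 1571 RPKM in polyclonal chronic libraries, where 2 were called higher and 4 lower. Among the lower, Cd8a was at 101 ± 0.556 RPKM in polyclonal acute and 8.48 ± 0.165 RPKM in polyclonal chronic libraries (mean ± SD, n = 3). In the same order 7 B cell markers summed to 3.40 to 15.9 RPKM and 215.6 to 236 RPKM (7 higher), 4 CD4 T cell markers to 99.5 to 108 RPKM and 378 to 403 RPKM (3 higher), and 4 NK cell markers to 61.7 to 69.3 RPKM and 16.1 to 17.7 RPKM (3 lower). The part of other cells in the member results was not tested, and in bulk RNA fewer cells of a type and less RNA per cell cannot be told apart.

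The promoters of 4 members are shown because these genes carry the contrasts described here. Hmgcs1 and Hsd17b7 are sterol enzymes with wide ranges, Fasn changed in opposite directions in different experiments, and Elovl5 was lower under repeated stimulation in all 3. Each window runs from 250 bases before to 50 bases after the gene's start in RefSeq on the build GRCm38.p6, 5′ to 3′ on the gene's own strand. The windows are chr13:119690101-119690400 (plus strand) for Hmgcs1, chr1:169969156-169969455 (minus strand) for Hsd17b7, chr11:120824498-120824797 (minus strand) for Fasn and chr9:77917115-77917414 (plus strand) for Elovl5. Capitals mark the sterol regulatory element TCACNCCAC and the CCAAT box (CCAAT, or ATTGG on the other strand), a motif of the factor NF-Y.
Hmgcs1: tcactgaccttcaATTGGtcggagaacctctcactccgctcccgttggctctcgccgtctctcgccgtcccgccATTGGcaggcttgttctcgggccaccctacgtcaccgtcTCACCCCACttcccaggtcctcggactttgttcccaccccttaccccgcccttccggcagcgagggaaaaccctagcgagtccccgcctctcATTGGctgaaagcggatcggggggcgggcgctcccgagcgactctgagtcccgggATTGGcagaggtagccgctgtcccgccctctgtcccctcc
Hsd17b7: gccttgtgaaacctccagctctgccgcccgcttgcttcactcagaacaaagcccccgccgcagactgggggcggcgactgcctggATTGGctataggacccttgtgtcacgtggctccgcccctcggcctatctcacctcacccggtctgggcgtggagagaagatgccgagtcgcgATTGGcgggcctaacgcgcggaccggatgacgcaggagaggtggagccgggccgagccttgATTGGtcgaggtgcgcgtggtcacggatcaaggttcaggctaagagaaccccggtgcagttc
Fasn: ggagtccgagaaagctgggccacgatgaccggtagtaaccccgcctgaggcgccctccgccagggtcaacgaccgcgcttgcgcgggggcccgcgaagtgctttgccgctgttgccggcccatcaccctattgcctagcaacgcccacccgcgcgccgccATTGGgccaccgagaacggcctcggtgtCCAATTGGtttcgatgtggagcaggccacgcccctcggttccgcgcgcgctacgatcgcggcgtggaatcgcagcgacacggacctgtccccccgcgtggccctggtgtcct
Elovl5: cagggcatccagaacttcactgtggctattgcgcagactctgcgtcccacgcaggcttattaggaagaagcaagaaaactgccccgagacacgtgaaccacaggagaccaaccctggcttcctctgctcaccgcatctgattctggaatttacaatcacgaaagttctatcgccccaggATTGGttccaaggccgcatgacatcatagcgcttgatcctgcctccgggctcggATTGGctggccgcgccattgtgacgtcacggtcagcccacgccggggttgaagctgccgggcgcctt

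A window was found for 28 of the 35 members, some of which had more than 1, for 37 windows in all. Hmgcs1 held the sterol regulatory element, with its first base 137 bases before the start, and it was the only one of the 28 members with these letters, while 408 of 32851 windows in the genome (1.24%) held them. CCAAT boxes were present in 24 of the 37 member windows (64.9%), against 37.4% of all windows. By role they stood in 14 of 18 windows of sterol enzymes, 5 of 10 of sensing genes and 5 of 9 of fatty acid enzymes. The printed windows held 4 CCAAT boxes in Hmgcs1, 3 in Hsd17b7, 3 in Fasn and 2 in Elovl5. The GC box GGGCGG, a motif of SP factors, was found in 28 of the 37 windows (75.7%), against 35.7% of all windows, and by role in 15 of 18, 8 of 10 and 5 of 9. The E box CACGTG was found in 7 of the 37 windows (18.9%), against 7.15%. Both strands were searched, and no sterol regulatory element overlapped a CCAAT box in these windows. The shares of all windows were not restricted to genes expressed here, while all members were. Overlapping windows of the same gene were counted separately. Only the letters given were searched, so other forms of these motifs would be missed. A match of letters is a description and not a binding site.

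Repeated anti-CD3 in polyclonal cells went with higher transcripts of most sterol enzymes and a split among fatty acid enzymes. Of the 18 sterol enzymes, 13 rose and 2 fell, where 28.6% of all 12630 genes tested rose and 35.5% fell. Their median log2 change was 0.47, against -0.08 for all genes. Among the 11 fatty acid enzymes 7 rose and 3 fell, with a median of 0.20, and among the 6 sensing genes 1 rose and 4 fell, with a median of -0.31. A change was called where the Benjamini-Hochberg adjusted p of limma's test on log2(RPKM + 1), over all genes tested, was under 0.05. Without the 3 libraries with raised low genes the enzyme counts were the same, 13 and 2 for sterol and 7 and 3 for fatty acid enzymes.

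Hsd17b7, a ketosteroid reductase of the steps that strip methyl groups from the sterol ring, was at 8.98, 10.1 and 9.26 RPKM in polyclonal acute and 22.7, 23.2 and 25.6 RPKM in polyclonal chronic libraries (log2 change 1.25 with SE 0.0767 and adjusted p = 1.30e-11). Every chronic library was above every acute one, and the ratio of means was 2.52. Acat2, the cytosolic thiolase that starts the mevalonate arm, rose from 18.5, 18.4 and 18.5 to 31.5, 29.7 and 33.1 RPKM (log2 change 0.73 with SE 0.0821 and adjusted p = 1.33e-07). Its reads may be shared with the near-identical copy Acat3. The oxidase of the same demethylation steps, Msmo1, rose from 58.6, 67.5 and 63.9 to 105, 102 and 109.7 RPKM (log2 change 0.73 with SE 0.0562 and adjusted p = 4.81e-10). Lanosterol synthase, Lss, which closes the ring, rose from 13.9, 12.9 and 12.6 to 22.1, 21.9 and 21.4 RPKM (log2 change 0.69 with SE 0.0695 and adjusted p = 2.69e-08). Groups did not overlap for any of these 4 genes, which was a condition for choosing them. The same condition was set for the enzymes with the largest changes in each later comparison. The 9 further sterol enzymes that rose were Pmvk, Mvd, Idi1, Fdps, Fdft1, Sqle, Cyp51, Tm7sf2 and Nsdhl, with log2 changes of 0.15 (Sqle) to 0.63 (Idi1). Mevalonate kinase, Mvk, fell, from 23.3, 18.8 and 18.9 to 18.2, 14.3 and 16.2 RPKM (log2 change -0.31 with SE 0.0899 and adjusted p = 0.00540), as did the sterol isomerase Ebp (log2 change -0.16), whose libraries overlapped. Hmgcs1, Sc5d and Dhcr7 were not called, with log2 changes of -0.02, -0.02 and -0.02.

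Of the sensing genes, Insig1, a retention factor that is itself an SREBP target, was alone in rising, from 47.99, 41.1 and 44.4 to 98.01, 92.8 and 102 RPKM (log2 change 1.12 with SE 0.0557 and adjusted p = 4.15e-13). Its partner Insig2 was at 9.62, 10.96 and 9.83 RPKM in acute and 10.2, 10.5 and 11.1 RPKM in chronic libraries and was not called (log2 change 0.06 with SE 0.0567 and adjusted p = 0.4005). The genes of the SREBPs and their escort all fell. Srebf1, which encodes the forms best known for driving fatty acid genes, went from 62.5, 55.8 and 55.4 to 44.8, 43.3 and 44.8 RPKM (log2 change -0.38 with SE 0.0415 and adjusted p = 1.11e-07). Srebf2, the form best known for sterol genes, went from 171, 149 and 155 to 139.8, 124 and 137 RPKM (log2 change -0.24 with SE 0.0510 and adjusted p = 0.000326). Scap fell from 29.2, 27.3 and 25.4 to 20.02, 20.3 and 19.9 RPKM (log2 change -0.42 with SE 0.0495 and adjusted p = 2.53e-07). Stard4, a cytosolic sterol carrier and a known SREBP target, fell from 58.4, 56.9 and 60.5 to 47.3, 41.3 and 42.8 RPKM (log2 change -0.41 with SE 0.0637 and adjusted p = 9.47e-06). Polyclonal chronic libraries were below all acute ones for each of these 4 genes, a description given without the share of all genes.

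In the fatty acid arm the largest change was a fall. Acss2, which makes cytosolic acetyl-CoA from acetate, went from 25.02, 22.6 and 22.7 to 8.68, 8.12 and 7.88 RPKM (log2 change -1.41 with SE 0.0617 and adjusted p = 5.32e-14), a ratio of means of 0.351. Its exons overlap those of Gss and Ggt7 on the other strand, and without stranded counting such reads cannot be told apart. Scd1, a desaturase that makes monounsaturated fatty acids, rose from 32.8, 30.2 and 35.6 to 85.1, 77.4 and 83.8 RPKM (log2 change 1.298 with SE 0.0636 and adjusted p = 3.18e-13). Fads1, a desaturase of polyunsaturated fatty acids, fell from 26.4, 24.3 and 26.5 to 12.96, 14.4 and 13.4 RPKM (log2 change -0.87 with SE 0.0528 and adjusted p = 9.91e-12). Fatty acid synthase, Fasn, rose from 47.9, 39.7 and 41.1 to 72.4, 68.1 and 69.7 RPKM (log2 change 0.70 with SE 0.0662 and adjusted p = 1.09e-08). The acute and chronic libraries of these 4 genes did not overlap, a condition for choosing them. Fads2, the partner desaturase of Fads1, rose (log2 change 0.52), as did Elovl1, Elovl6, Acly and Scd2 (log2 changes of 0.15 for Scd2 to 0.32 for Elovl1). Elovl5, an elongase of polyunsaturated fatty acids, fell (log2 change -0.53). Acetyl-CoA carboxylase, Acaca, was not called (log2 change 0.19 with SE 0.0845 and adjusted p = 0.0554), but was called with the replicate number as a block (adjusted p = 0.0472).

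**Figure D1:**
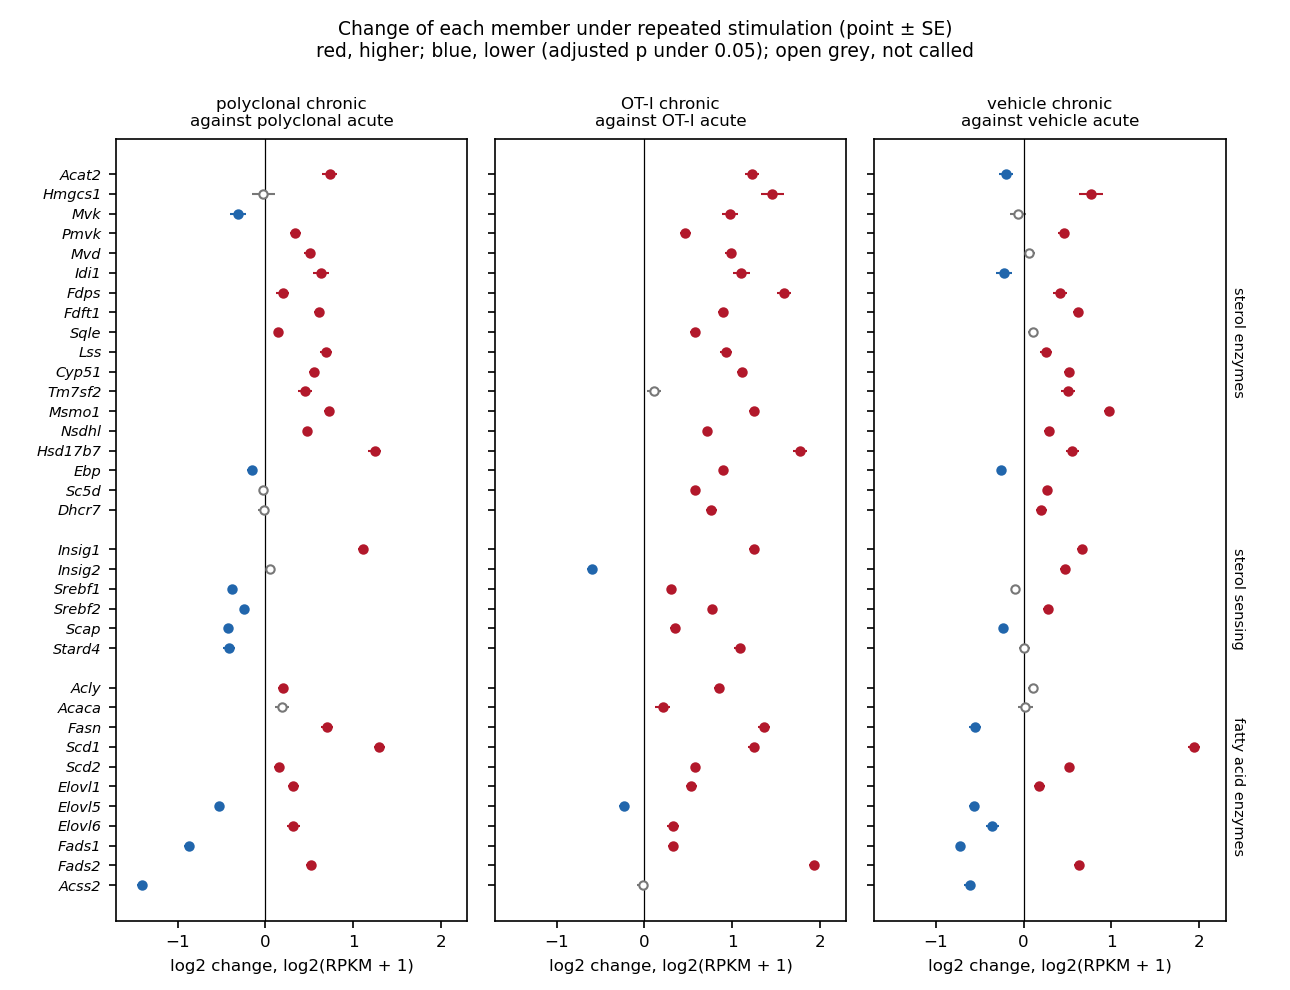
Log2 change of each of the 35 members (rows, grouped by role) on the log2(RPKM + 1) scale in the 3 chronic against acute comparisons (columns). Points are estimates with SE bars over 3 libraries per group, red for higher, blue for lower and open grey for not called. In the OT-I column 31 of 35 points are red, and the fatty acid enzymes spread on both sides of 0 in the polyclonal and vehicle columns.

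With renewed peptide in the OT-I co-culture almost the whole module was higher. Among sterol enzymes 17 of 18 rose and 0 fell, at a background of 22.4% of genes higher and 36.2% lower. Tm7sf2 was the exception, at 7.34, 6.68 and 7.16 RPKM in acute and 7.76, 6.998 and 8.33 RPKM in chronic libraries (log2 change 0.11 with SE 0.0788 and adjusted p = 0.251), and its exons overlap those of Vps51. The median was 0.95, against -0.12 for all genes. Called at least 2-fold higher were 7 sterol enzymes and 0 were lower by as much, beside 368 higher and 352 lower of all 12630 genes. Fatty acid enzymes rose in 9 of 11 cases and fell in 1 (median 0.54), and sensing genes rose in 5 of 6 and fell in 1 (median 0.56). Without the 3 libraries with raised low genes the enzyme counts did not change. With each library rescaled to 1 common median, 3460 genes rose and 3518 fell in place of 2827 and 4568, and still 17 sterol and 9 fatty acid enzymes rose. The acute co-cultures held more melanocyte RNA than the chronic ones (7992 to 8292 against 4692 to 4817 RPKM), with 8 of 12 melanocyte markers called lower in the chronic ones. From OT-I acute to OT-I chronic libraries, the 7 B cell markers summed to 5.195 to 11.9 and 45.3 to 49.1 RPKM (6 called higher), 5 myeloid markers to 2.92 to 7.35 and 18.7 to 20.05 RPKM (2 higher), 4 NK cell markers to 57.8 to 60.04 and 69.7 to 72.1 RPKM (3 higher, 1 lower), and the CD8 T cell markers to 1026 to 1293 and 878 to 899.6 RPKM (1 higher, 5 lower). The part of these cells in the results was not tested.

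Hsd17b7 was at 2.47, 2.32 and 3.08 RPKM in OT-I acute and 11.6, 11.6 and 10.8 RPKM in OT-I chronic libraries (log2 change 1.77 with SE 0.0767 and adjusted p = 2.18e-13). Farnesyl diphosphate synthase, Fdps, which makes the last intermediate shared by sterols and other isoprenoids, went from 10.3, 10.6 and 7.93 to 30.01, 31.5 and 30.5 RPKM (log2 change 1.59 with SE 0.0760 and adjusted p = 9.49e-13). Its exons share 1124 bases with Gm43738 on the same strand, and Gm43738 is absent from the deposited table. Hmgcs1, the HMG-CoA synthase, went from 1.34, 1.42 and 1.63 to 5.88, 5.78 and 5.63 RPKM (log2 change 1.46 with SE 0.133 and adjusted p = 1.33e-08). All chronic libraries lay above all acute ones, by the condition for choosing these genes, with ratios of means of 4.31, 3.19 and 3.94. Msmo1 rose from 30.9, 32.6 and 29.2 to 73.97, 70.4 and 79.3 RPKM (log2 change 1.24 with SE 0.0562 and adjusted p = 4.13e-13). The low acute levels mean that the log2(RPKM + 1) scale understates the change of Hmgcs1 and of Idi1, the isopentenyl isomerase, which was at 1.39, 1.22 and 0.877 RPKM in acute and 3.61, 3.62 and 3.64 RPKM in chronic libraries (log2 change 1.105, ratio of means 3.12). The other 12 sterol enzymes that rose had log2 changes of 0.47 (Pmvk) to 1.23 (Acat2).

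Besides Elovl5, the sensing gene Insig2 was the only member that fell here. It went from 24.9, 26.6 and 24.9 to 16.5, 16.4 and 16.5 RPKM (log2 change -0.60 with SE 0.0567 and adjusted p = 2.37e-08), while Insig1 went from 17.1, 15.4 and 16.95 to 39.8, 41.8 and 40.1 RPKM (log2 change 1.25 with SE 0.0557 and adjusted p = 3.29e-13). The INSIG genes thus moved in opposite directions. Stard4 rose from 15.999, 13.2 and 15.5 to 34.3, 33.7 and 30.1 RPKM (log2 change 1.08 with SE 0.0637 and adjusted p = 2.09e-11). Srebf2 rose from 59.8, 58.5 and 60.95 to 103, 105 and 101 RPKM (log2 change 0.77 with SE 0.0510 and adjusted p = 1.12e-10). Srebf1 and Scap rose by less, from 32.8, 32.5 and 31.8 to 40.02, 39.8 and 40.2 RPKM (log2 change 0.30 with SE 0.0415 and adjusted p = 4.04e-06) and from 23.99, 22.9 and 24.5 to 29.9, 30.8 and 30.9 RPKM (log2 change 0.35 with SE 0.0495 and adjusted p = 5.81e-06). Exons of Srebf1 overlap those of Rai1 on the other strand. The groups did not overlap for any sensing gene. The share of all genes without overlap is not given, so this is only a description.

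Among fatty acid enzymes Fads2 rose in OT-I cells from 23.6, 23.1 and 25.4 RPKM to 96.7, 97.6 and 90.1 RPKM (log2 change 1.94 with SE 0.0558 and adjusted p = 3.81e-16), and the chronic level was 3.94 times the acute one. Fasn rose from 19.9, 18.2 and 21.8 to 54.5, 54.5 and 49.8 RPKM (log2 change 1.36 with SE 0.0662 and adjusted p = 1.18e-12). Scd1 rose from 16.98, 16.8 and 18.6 to 42.8, 44.5 and 41.04 RPKM (log2 change 1.25 with SE 0.0636 and adjusted p = 2.54e-12), with the caution that Scd1 and Scd2 are close copies whose reads may be split. ATP citrate lyase, Acly, which makes acetyl-CoA for both arms from citrate, rose from 52.9, 47.02 and 49.6 to 92.1, 93.6 and 85.997 RPKM (log2 change 0.85 with SE 0.0552 and adjusted p = 9.05e-11). These groups did not overlap, by the same condition. Scd2, Elovl1, Elovl6 and Fads1 rose by log2 changes of 0.32 (Elovl6) to 0.58 (Scd2). Acaca was called higher with overlapping libraries (log2 change 0.21). That call was lost, for example, in a fit of the OT-I groups alone (adjusted p = 0.116), where 8 fatty acid enzymes rose. Elovl5 fell from 55.2, 53.4 and 54.2 to 46.1, 46.3 and 45.3 RPKM (log2 change -0.24 with SE 0.0480 and adjusted p = 0.000286), a call that was lost with libraries rescaled to 1 median (adjusted p = 0.0571). Acss2 was at 7.87, 7.97 and 7.94 RPKM in acute and 7.72, 7.91 and 7.73 RPKM in chronic libraries, not called (log2 change -0.02 with SE 0.0617 and adjusted p = 0.772).

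Vehicle cells under repeated anti-CD3 had higher transcripts of 12 of 18 sterol enzymes and lower transcripts of 3, at a background of 24.5% of genes higher and 34.4% lower. The median was 0.28, against -0.03 for all genes. The fatty acid enzymes were divided, with 4 higher, 5 lower and a median of 0.02, and of the sensing genes 3 rose and 1 fell. Without the 3 libraries with raised low genes, none of which is from this experiment, the fit across all groups gave 13 sterol enzymes higher and 3 lower, beside 5 and 5 fatty acid enzymes. From vehicle acute to vehicle chronic libraries, myeloid markers summed to 2.74 to 3.94 and 10.03 to 10.7 RPKM (3 of 5 called higher), NK cell markers to 105.7 to 118 and 165 to 168 RPKM (2 of 4 higher), CD4 T cell markers to 33.8 to 34.7 and 19.4 to 22.3 RPKM (1 higher, 2 lower of 4) and CD8 T cell markers to 1475 to 1533 and 1818 to 1831 RPKM (4 higher, 2 lower of 7). Their part in the results was not tested.

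Msmo1 had the largest sterol enzyme change, from 51.6, 46.97 and 46.7 to 97.4, 95.7 and 95.3 RPKM (log2 change 0.98 with SE 0.0562 and adjusted p = 5.15e-12). Hmgcs1 rose from 17.3, 17.6 and 11.9 to 26.1, 33.6 and 22.04 RPKM (log2 change 0.77 with SE 0.133 and adjusted p = 4.68e-05), with a wide spread within both groups but no overlap. Squalene synthase, Fdft1, rose from 17.9, 19.03 and 16.1 to 27.9, 27.7 and 26.9 RPKM (log2 change 0.62 with SE 0.0568 and adjusted p = 9.19e-09), and its exons overlap those of Ctsb on the other strand. Hsd17b7 rose from 10.5, 9.16 and 8.69 to 14.9, 13.7 and 14.3 RPKM (log2 change 0.56 with SE 0.0767 and adjusted p = 2.76e-06). These 4 genes, chosen for no overlap, had every chronic library above the acute ones. The other 8 that rose were Pmvk, Fdps, Lss, Cyp51, Tm7sf2, Nsdhl, Sc5d and Dhcr7 (log2 changes of 0.20 for Dhcr7 to 0.51 for Cyp51). Of the 3 that fell, Ebp went from 50.4, 52.1 and 48.3 to 42.6, 40.7 and 42.5 RPKM (log2 change -0.25 with SE 0.0518 and adjusted p = 0.000260). Acat2 and Idi1 fell by less (log2 change -0.20 with SE 0.0821 and adjusted p = 0.0440, and log2 change -0.23 with SE 0.0919 and adjusted p = 0.0413), and neither call held with a pseudocount of 0.1, under rescaling, or without vehicle acute replicate 1, 2 or 3 or vehicle chronic replicate 2, when 1 sterol enzyme was called lower. Mvk, Mvd and Sqle were not called (log2 changes -0.07, 0.07 and 0.10).

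Insig1 rose again, from 38.7, 36.3 and 35.1 to 58.8, 60.1 and 57.3 RPKM (log2 change 0.67 with SE 0.0557 and adjusted p = 2.06e-09), and here Insig2 rose with it, from 8.19, 8.83 and 7.91 to 12.5, 11.9 and 11.4 RPKM (log2 change 0.47 with SE 0.0567 and adjusted p = 4.00e-07). Srebf2 rose from 113, 113 and 114 to 139, 134 and 139 RPKM (log2 change 0.27 with SE 0.0510 and adjusted p = 0.000108). Scap fell from 30.4, 29.5 and 29.4 to 24.96, 24.04 and 26.4 RPKM (log2 change -0.24 with SE 0.0495 and adjusted p = 0.000354). Stard4 and Srebf1 were not called. Stard4 was at 47.7, 44.3 and 48.3 RPKM in vehicle acute and 47.004, 46.5 and 47.6 RPKM in vehicle chronic libraries (log2 change 0.01 with SE 0.0637 and adjusted p = 0.9501). Srebf1 was at 57.5, 57.4 and 59.8 RPKM in vehicle acute and 54.4, 54.7 and 54.3 RPKM in vehicle chronic libraries (log2 change -0.09 with SE 0.0415 and adjusted p = 0.0595).

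Fatty acid enzymes of vehicle cells changed in both directions, the desaturases among them. Scd1 rose from 11.9, 12.1 and 10.7 to 48.03, 45.7 and 48.2 RPKM (log2 change 1.94 with SE 0.0636 and adjusted p = 5.77e-16), a ratio of means of 4.08. Fads1 fell from 30.6, 32.8 and 32.98 to 19.1, 19.6 and 18.5 RPKM (log2 change -0.72 with SE 0.0528 and adjusted p = 2.44e-10). Fads2 rose from 37.3, 34.5 and 36.2 to 54.1, 57.2 and 57.7 RPKM (log2 change 0.63 with SE 0.0558 and adjusted p = 4.79e-09). Acss2 fell from 12.1, 13.2 and 13.6 to 8.34, 8.07 and 7.897 RPKM (log2 change -0.62 with SE 0.0617 and adjusted p = 3.13e-08). All chronic libraries lay on 1 side of the acute ones for these genes, by the condition for choosing them. Fasn fell too, from 64.4, 60.8 and 58.8 to 40.9, 40.4 and 43.2 RPKM (log2 change -0.55), as did Elovl5 (log2 change -0.57) and Elovl6 (log2 change -0.36). Scd2 and Elovl1 rose (log2 changes 0.52 and 0.18), and Acly and Acaca were not called (log2 changes 0.10 and 0.02).

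**Figure D2:**
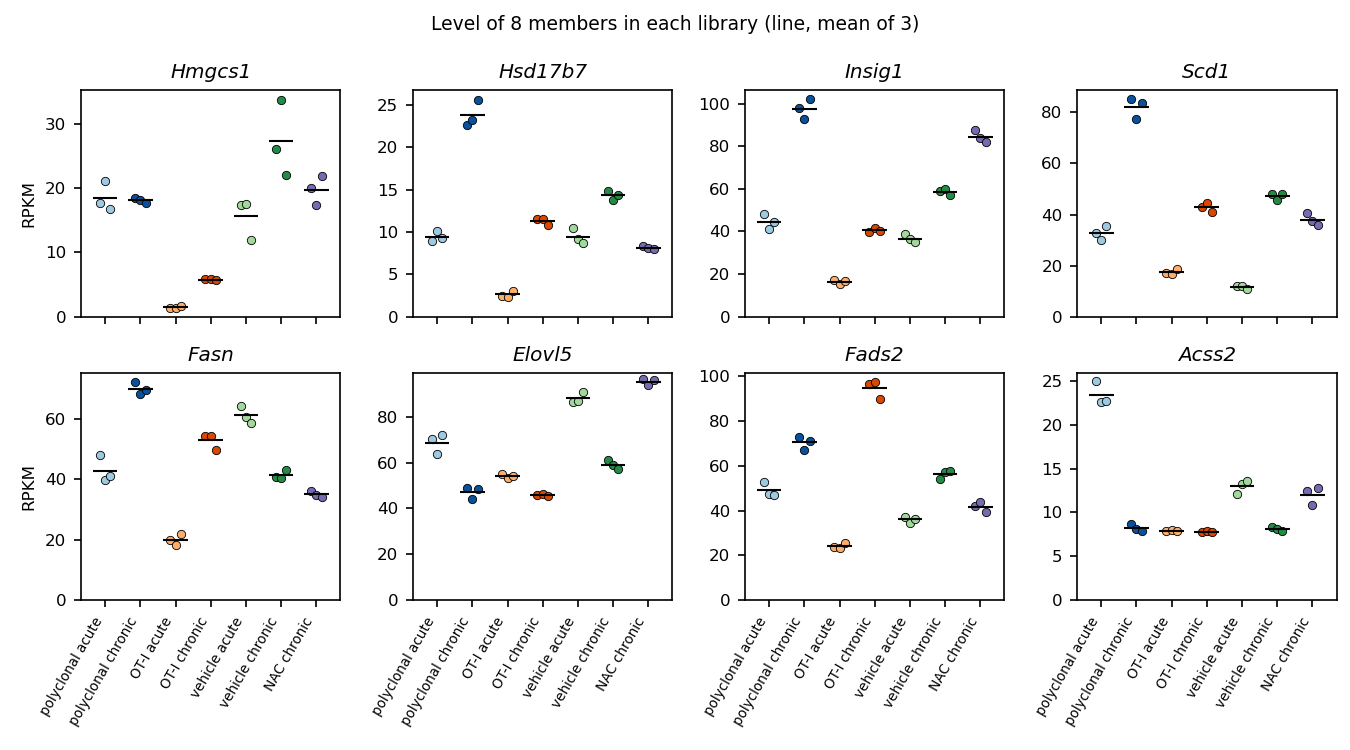
RPKM of 8 members (panels) in each library of the 7 groups, with 1 point per library and a line at the mean of 3. Scd1 and Insig1 are higher in each chronic group than in its acute group, Elovl5 is lower in the 3 chronic groups without NAC, and Fasn rises in polyclonal and OT-I cells and falls in vehicle cells.

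Across the 3 chronic comparisons 13 members were called higher in all 3. They were the sterol enzymes Pmvk, Fdps, Fdft1, Lss, Cyp51, Msmo1, Nsdhl and Hsd17b7, the sensing gene Insig1 and the fatty acid enzymes Scd1, Scd2, Elovl1 and Fads2. Elovl5 was lower in all 3. Of all 12630 genes tested, 5.38% were called higher in all 3 and 10.8% lower in all 3. Another 12 members were higher in one comparison and lower in another, namely 4 sterol enzymes (Acat2, Mvk, Idi1 and Ebp), 5 of the 6 sensing genes and 3 fatty acid enzymes (Fasn, Elovl6 and Fads1), a pattern that 24.9% of all genes showed. Libraries of the 3 experiments were separate, but experiment, cell source and stimulus cannot be told apart.

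Tested as differences of the log2 changes, the OT-I effect exceeded the polyclonal one in 28 members and was below it in 2, at backgrounds of 26.6% and 29.2% of genes. With the replicate number as a block, 26 exceeded it, as Lss (adjusted p = 0.0525) and Elovl1 (adjusted p = 0.0519) were no longer called. These calls were lost in 14 and 17 of the 29 settings tried. Stard4 rose in OT-I and fell in polyclonal cells (difference 1.497, SE 0.0901, adjusted p = 2.05e-11). Hmgcs1 (1.48, SE 0.188, adjusted p = 1.26e-06) and Fads2 (1.42, SE 0.0789, adjusted p = 6.05e-12) had differences of like size on this scale. The members below were Insig2 (-0.65, SE 0.0802, adjusted p = 7.98e-07) and Tm7sf2 (-0.35, SE 0.111, adjusted p = 0.0119). Insig1, Scd1, Elovl6, Pmvk and Acaca did not pass the test of a difference, with differences of 0.13, -0.05, 0.00, 0.13 and 0.02.

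The OT-I effect also exceeded the vehicle effect in 29 members and was below it in 3, where 27.4% and 31.1% of genes were. Without the 3 libraries with raised low genes Acaca was called above it too (adjusted p = 0.00434 in limma's test). Fasn differed most (1.92, SE 0.0936, adjusted p = 8.77e-13), ahead of Acat2 (1.43, SE 0.116, adjusted p = 2.02e-09) and Idi1 (1.33, SE 0.1299, adjusted p = 2.96e-08). The 3 below were Insig2 (-1.07, SE 0.0802, adjusted p = 5.87e-10), Scd1 (-0.70, SE 0.0899, adjusted p = 1.46e-06) and Tm7sf2 (-0.40, SE 0.111, adjusted p = 0.00424).

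The vehicle and polyclonal experiments both used anti-CD3 on C57BL/6 cells. The vehicle effect was above the polyclonal one in 12 members and below it in 9 of 35, near the backgrounds of 25.1% and 27.3%, and 52.4% of all genes differed in either direction. With the replicate block 11 members were above, as Dhcr7 was no longer called (adjusted p = 0.0566), a call that was lost in 21 of the 29 settings. Without the 3 libraries with raised low genes Dhcr7 was not called either (adjusted p = 0.122 in limma's test). Fads1 and Fdps were then called above (adjusted p = 0.00597 and 0.0409). Acss2 fell less in vehicle cells (difference 0.79, SE 0.0873, adjusted p = 2.04e-07). Hmgcs1 and Scd1 had higher changes there (differences 0.79, SE 0.188, adjusted p = 0.00146, and 0.64, SE 0.0899, adjusted p = 4.73e-06). Fasn was lower (difference -1.25, SE 0.0936, adjusted p = 6.38e-10), as were Acat2 (-0.93, SE 0.116, adjusted p = 1.04e-06) and Idi1 (-0.86, SE 0.1299, adjusted p = 1.29e-05). The B cell markers that rose in polyclonal chronic libraries summed to 3.18 to 6.32 RPKM over both vehicle groups.

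NAC under repeated anti-CD3 went with changes in both directions in either arm. Against vehicle chronic libraries 6 sterol enzymes rose and 6 fell, 4 fatty acid enzymes rose and 7 fell, and 3 sensing genes rose and 2 fell. The background was 38.5% of genes higher and 22.6% lower. Medians were -0.07 for sterol enzymes, -0.20 for fatty acid enzymes and 0.13 for sensing genes, against 0.08 for all genes. Whatever the direction, the median absolute log2 change was 0.22, 0.42 and 0.15 in that order, against 0.29 for all genes. By this measure sterol enzymes and sensing genes changed less than all genes, and fatty acid enzymes more. With libraries rescaled to 1 median, 3380 genes rose and 4114 fell in place of 4862 and 2854, and the sterol enzymes gave 4 higher and 9 lower while the fatty acid counts did not change. Without the 3 libraries with raised low genes the counts were 7 and 7 for sterol and 4 and 7 for fatty acid enzymes. CD4 T cell markers summed to 19.4 to 22.3 RPKM in vehicle chronic and 74.9 to 76.8 RPKM in NAC chronic libraries (4 of 4 called higher). In the same order myeloid markers summed to 10.03 to 10.7 and 31.2 to 33.03 RPKM (2 higher, 1 lower of 5), B cell markers to 3.18 to 4.498 and 10.08 to 11.4 RPKM (2 of 7 higher), NK cell markers to 165 to 168 and 215.6 to 219.8 RPKM (1 higher, 2 lower of 4) and CD8 T cell markers to 1818 to 1831 and 2279 to 2327 RPKM (4 of 7 higher). Their part in these results was not tested.

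Hsd17b7 fell from 14.9, 13.7 and 14.3 RPKM in vehicle chronic to 8.38, 8.08 and 8.02 RPKM in NAC chronic libraries (log2 change -0.74 with SE 0.0767 and adjusted p = 5.90e-08), a ratio of means of 0.5699. Dhcr7, the reductase of a final step to cholesterol, rose from 20.3, 19.6 and 20.3 to 32.3, 33.6 and 33.1 RPKM (log2 change 0.69 with SE 0.0625 and adjusted p = 8.78e-09). Phosphomevalonate kinase, Pmvk, rose from 33.6, 33.6 and 31.2 to 50.1, 49.5 and 48.3 RPKM (log2 change 0.57 with SE 0.0622 and adjusted p = 1.14e-07). Nsdhl, the dehydrogenase that acts between Msmo1 and Hsd17b7, rose from 25.4, 23.4 and 25.1 to 37.2, 37.7 and 35.2 RPKM (log2 change 0.56 with SE 0.0505 and adjusted p = 8.76e-09). Neighbouring steps of the pathway therefore changed in opposite directions, among genes chosen for large changes and no overlap of libraries. Mvk, Tm7sf2 and Sc5d also rose (log2 changes 0.43, 0.29 and 0.13). Under rescaling Tm7sf2 was no longer called, and Sc5d changed sign to -0.04 and was not called. Hmgcs1, Fdps, Lss, Cyp51 and Msmo1 fell (log2 changes of -0.43 for Hmgcs1 to -0.16 for Cyp51). Acat2, Mvd, Idi1, Fdft1, Sqle and Ebp were not called, with log2 changes of -0.10 (Sqle) to 0.18 (Acat2).

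Both INSIG genes rose further with NAC. Insig1 went from 58.8, 60.1 and 57.3 to 87.6, 84.1 and 81.9 RPKM (log2 change 0.52 with SE 0.0557 and adjusted p = 1.00e-07), and Insig2 from 12.5, 11.9 and 11.4 to 13.98, 14.8 and 15.1 RPKM (log2 change 0.27 with SE 0.0567 and adjusted p = 0.000300). Stard4 rose from 47.004, 46.5 and 47.6 to 54.6, 52.5 and 52.9999 RPKM (log2 change 0.18 with SE 0.0637 and adjusted p = 0.0199). Insig2 and Stard4 were not called with libraries rescaled to 1 median (adjusted p = 0.109 and 0.962). Srebf1 and Scap fell slightly, Srebf1 from 54.4, 54.7 and 54.3 to 50.2, 50.8 and 49.3 RPKM (log2 change -0.12 with SE 0.0415 and adjusted p = 0.0183) and Scap from 24.96, 24.04 and 26.4 to 23.97, 22.1 and 22.9 RPKM (log2 change -0.13 with SE 0.0495 and adjusted p = 0.0343). Srebf2, at 139, 134 and 139 RPKM in vehicle chronic and 149, 145 and 139 RPKM in NAC chronic libraries, was not called (log2 change 0.07 with SE 0.0510 and adjusted p = 0.242).

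Elovl5 rose with NAC from 61.2, 59.04 and 57.2 to 96.4, 93.8 and 95.96 RPKM (log2 change 0.68 with SE 0.0480 and adjusted p = 1.86e-10). Elovl1, an elongase of very long saturated chains whose exons overlap those of Cdc20 on the other strand, fell from 65.8, 68.4 and 65.3 to 46.4, 42.2 and 40.8 RPKM (log2 change -0.62 with SE 0.0630 and adjusted p = 4.95e-08). Acss2 rose from 8.34, 8.07 and 7.897 to 12.4, 10.9 and 12.8 RPKM (log2 change 0.51 with SE 0.0617 and adjusted p = 4.52e-07). Fads1 rose from 19.1, 19.6 and 18.5 to 26.96, 26.3 and 28.3 RPKM (log2 change 0.49 with SE 0.0528 and adjusted p = 1.05e-07). Libraries of these 4 genes did not overlap between groups, by the condition for choosing them. Elovl6, which lengthens palmitate, was the other fatty acid enzyme that rose (log2 change 0.45). Fads2, Scd1, Scd2, Fasn, Acaca and Acly were lower (log2 changes of -0.42 for Fads2 to -0.16 for Acly) with NAC. The Acaca call (adjusted p = 0.0424) was lost when any single vehicle chronic or NAC chronic library, OT-I chronic replicate 2 or vehicle acute replicate 2 was left out (adjusted p of up to 0.135), and without NAC chronic replicate 2 only 5 fatty acid enzymes were called lower. The changes of Fads1 and Fads2 were each opposite in sign to those between vehicle chronic and vehicle acute libraries. So were those of Scd1, Scd2, Elovl1, Elovl5, Elovl6 and Acss2, while Fasn was lower in both comparisons. Acaca and Acly were called only with NAC. Both comparisons share the vehicle chronic libraries, so opposite signs are in part built in.

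**Figure D3:**
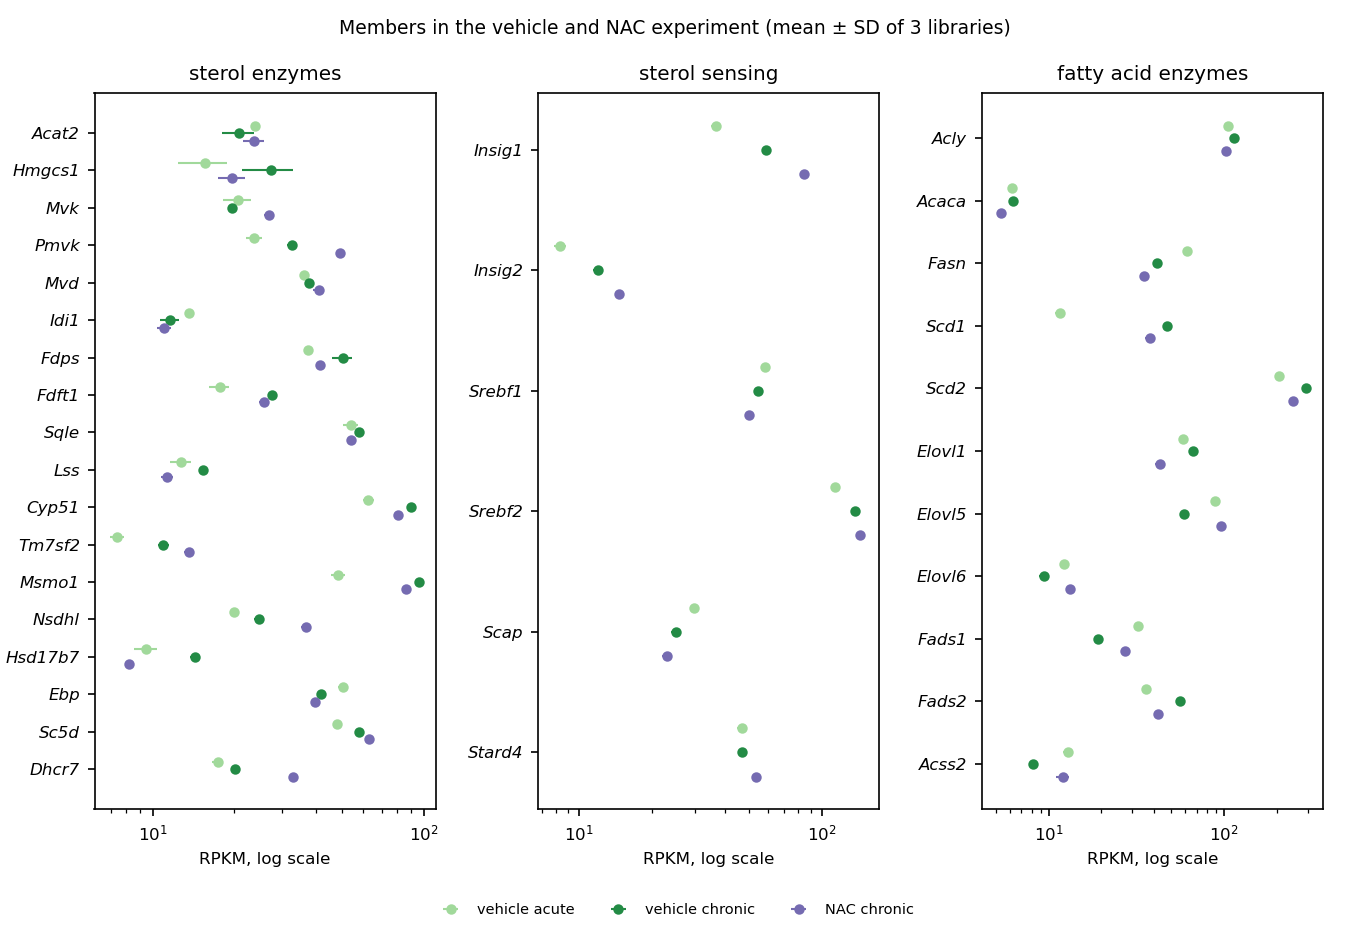
RPKM (log scale) of the 35 members in vehicle acute, vehicle chronic and NAC chronic libraries, as mean ± SD of 3 libraries, in 1 panel per role. Insig1, Pmvk, Nsdhl and Dhcr7 step up from vehicle acute to vehicle chronic to NAC chronic, while Elovl5, Elovl6, Fads1 and Acss2 are lower in vehicle chronic than in the other groups.

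Compared with vehicle acute cells, NAC chronic cells had 11 sterol enzymes higher and 3 lower, at a background of 36.3% higher and 29.9% lower. Fatty acid enzymes gave 4 higher and 3 lower, and sensing genes 4 higher and 2 lower. The medians were 0.34, -0.05 and 0.27, against 0.04 for all genes. Median absolute log2 changes were 0.34, 0.21 and 0.35, against 0.35 for all genes. Under rescaling 3610 genes rose and 4802 fell in place of 4587 and 3781, and the counts were 8 and 5 for sterol and 1 and 6 for fatty acid enzymes. Without the 3 libraries with raised low genes they were 12 and 4, and 4 and 4. These comparisons share vehicle libraries with those above, so the levels are given side by side.

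Pmvk was at 24.2, 25.02 and 21.8 RPKM in vehicle acute and 50.1, 49.5 and 48.3 RPKM in NAC chronic libraries (log2 change 1.03 with SE 0.0622 and adjusted p = 1.11e-11). Dhcr7 was at 16.8, 18.2 and 17.1 RPKM in vehicle acute and 32.3, 33.6 and 33.1 RPKM in NAC chronic libraries (log2 change 0.89 with SE 0.0625 and adjusted p = 1.20e-10). Nsdhl was at 20.2, 20.4 and 19.4 RPKM in vehicle acute and 37.2, 37.7 and 35.2 RPKM in NAC chronic libraries (log2 change 0.84 with SE 0.0505 and adjusted p = 9.85e-12). Along with Tm7sf2 and Sc5d, these 3 genes were called higher in vehicle chronic than in vehicle acute, higher again in NAC chronic than in vehicle chronic, and higher in NAC chronic than in vehicle acute libraries. Msmo1, at 51.6, 46.97 and 46.7 RPKM in vehicle acute and 86.96, 84.2 and 86.6 RPKM in NAC chronic libraries, was above the acute level (log2 change 0.82 with SE 0.0562 and adjusted p = 8.54e-11) although it had fallen against vehicle chronic. The same 3 calls were made for Cyp51 and Hmgcs1 (log2 changes against vehicle acute 0.35 and 0.33), but Hmgcs1 libraries overlapped, and its call against vehicle acute was lost under rescaling (adjusted p = 0.236). The other sterol enzymes that rose were Mvk, Mvd and Fdft1 (log2 changes 0.37, 0.17 and 0.52), and under rescaling Mvk and Mvd were not called. Idi1, Hsd17b7 and Ebp were lower than in vehicle acute libraries (log2 changes -0.28, -0.19 and -0.33), and without NAC chronic replicate 2 only 1 sterol enzyme was called lower. Acat2, Fdps, Sqle and Lss were not called (log2 changes of -0.15 for Lss to 0.15 for Fdps), though under rescaling Lss and Sqle were called lower (adjusted p = 0.000692 and 0.0327).

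Among sensing genes Insig1 was at 38.7, 36.3 and 35.1 RPKM in vehicle acute and 87.6, 84.1 and 81.9 RPKM in NAC chronic libraries (log2 change 1.18 with SE 0.0557 and adjusted p = 1.93e-13). Insig2 was higher as well (log2 change 0.75 with SE 0.0567 and adjusted p = 3.76e-10), and so were Srebf2 (log2 change 0.34 with SE 0.0510 and adjusted p = 5.45e-06) and Stard4 (log2 change 0.19 with SE 0.0637 and adjusted p = 0.0135). Stard4 was not called under rescaling (adjusted p = 0.721). Scap (log2 change -0.36 with SE 0.0495 and adjusted p = 1.98e-06) and Srebf1 (log2 change -0.21 with SE 0.0415 and adjusted p = 0.000142) were lower. In the fatty acid arm Scd1 was at 11.9, 12.1 and 10.7 RPKM in vehicle acute and 40.7, 37.3 and 35.9 RPKM in NAC chronic libraries (log2 change 1.63 with SE 0.0636 and adjusted p = 9.82e-15), above the acute level although below vehicle chronic. Scd2 (log2 change 0.27 with SE 0.0480 and adjusted p = 4.62e-05) and Fads2 (log2 change 0.21 with SE 0.0558 and adjusted p = 0.00257) showed the same order, but neither was called against vehicle acute under rescaling (adjusted p = 0.102 and 0.487). Fasn was lowest with NAC, at 64.4, 60.8 and 58.8 in vehicle acute, 40.9, 40.4 and 43.2 in vehicle chronic and 35.98, 34.8 and 34.2 RPKM in NAC chronic libraries (log2 change -0.79 with SE 0.0662 and adjusted p = 1.68e-09). Elovl1 was also below vehicle acute (log2 change -0.44 with SE 0.0630 and adjusted p = 3.93e-06). Acss2 and Elovl6, which were lower in vehicle chronic cells and higher with NAC, were not called against vehicle acute (log2 changes -0.10 and 0.10), but Acss2 was called lower under rescaling (log2 change -0.25, adjusted p = 0.00256). Fads1 stayed below it (log2 change -0.23). Elovl5 was above it (log2 change 0.11), a difference that changed sign to -0.04 under rescaling and was not called. Acly and Acaca were not called (log2 changes -0.05 and -0.19), though under rescaling both were called lower (adjusted p = 0.0115 and 0.000607).

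The arms were set side by side as the mean log2(RPKM + 1) over their enzymes in each library. Rises and falls cancel in such a mean, so it does not show which arm changed more. Whatever the direction, the median absolute log2 change was 0.47 for sterol and 0.52 for fatty acid enzymes in polyclonal cells, 0.95 and 0.54 in OT-I cells, and 0.28 and 0.55 in vehicle cells, where all genes gave 0.34, 0.28 and 0.28. The sterol mean was 4.71 to 4.76 in polyclonal acute and 5.05 to 5.14 in polyclonal chronic libraries, 3.40 to 3.43 in OT-I acute and 4.37 to 4.40 in OT-I chronic, 4.58 to 4.70 in vehicle acute and 4.93 to 4.97 in vehicle chronic, and 4.95 to 4.99 in NAC chronic. Acute and chronic ranges did not overlap in any experiment, and NAC chronic libraries overlapped the vehicle chronic ones. Both statements held for the fatty acid mean as well. The fatty acid mean was 5.26 to 5.36 in polyclonal acute and 5.39 to 5.43 in polyclonal chronic, 4.53 to 4.64 in OT-I acute and 5.18 to 5.26 in OT-I chronic, 5.18 to 5.19 in vehicle acute and 5.23 to 5.24 in vehicle chronic, and 5.21 to 5.27 in NAC chronic libraries. Within a library the sterol mean minus the fatty acid mean was -0.64 to -0.55 in polyclonal acute and -0.34 to -0.26 in polyclonal chronic, -1.24 to -1.09 in OT-I acute and -0.89 to -0.79 in OT-I chronic, and -0.60 to -0.49 in vehicle acute and -0.30 to -0.28 in vehicle chronic. The chronic libraries were thus above the acute ones in this difference in all 3 experiments, and NAC chronic libraries were at -0.27 to -0.25. No p is given for these means, which are a description.

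**Figure D4:**
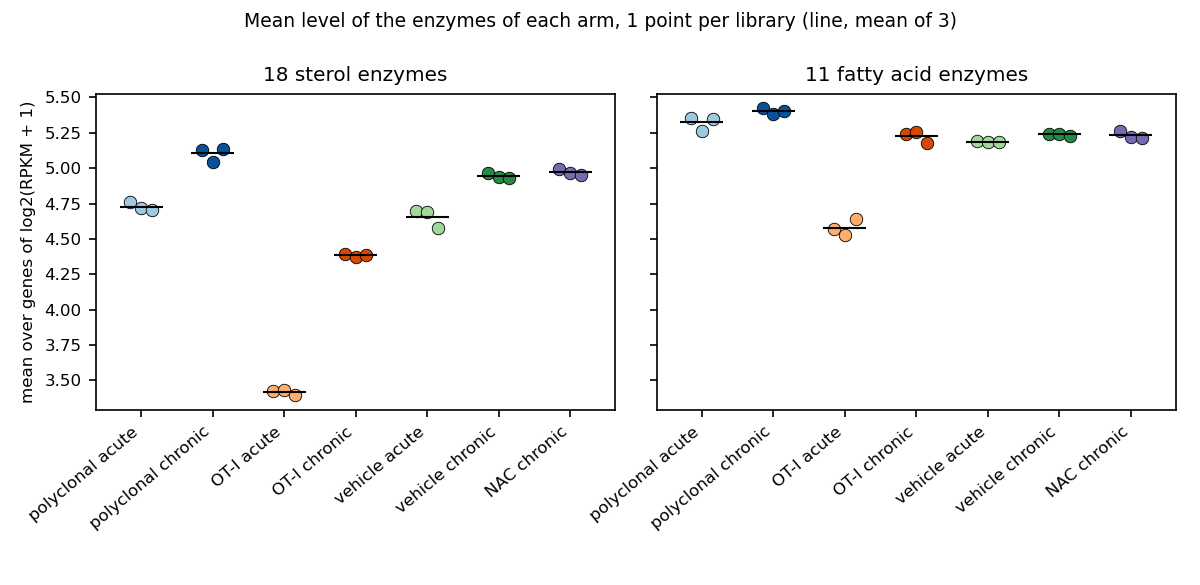
Mean of log2(RPKM + 1) over the 18 sterol enzymes (left) and the 11 fatty acid enzymes (right), with 1 point per library and a line at the mean of the 3 libraries of each group. The axis does not start at 0. OT-I acute libraries are lowest in both panels, at 3.40 to 3.43 on the left and 4.53 to 4.64 on the right.

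Levels across all 7 groups placed OT-I acute libraries lowest for most members. All 18 sterol enzymes, 4 of 6 sensing genes and 7 of 11 fatty acid enzymes had their lowest group mean there. The highest mean of a sterol enzyme was in polyclonal chronic libraries for 9 genes, NAC chronic for 6, vehicle chronic for 2 and vehicle acute for 1. The shares of all genes with their lowest or highest mean in these groups are not given, so the counts are only a description. Idi1 had the widest range, with its highest group mean 19.1 times its lowest, followed by Hmgcs1 at 18.6 times, Hsd17b7 at 9.07, Scd1 at 7.08 and Acat2 at 6.70 times. Scap and Sqle had the narrowest ranges, at 1.52 and 1.71 times. Insig2 ran the other way from most of the module, with its highest mean in OT-I acute and its lowest in vehicle acute libraries. Levels in OT-I libraries include those of melanoma cells, and differences between experiments and between their cell systems cannot be told apart.

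Further genes of these pathways are set beside the shares of all genes tested, which were 28.6% higher and 35.5% lower in polyclonal, 22.4% and 36.2% in OT-I, 24.5% and 34.4% in vehicle cells, and 38.5% and 22.6% with NAC. Of 11 further genes of sterol synthesis and SREBP processing, 5 rose and 4 fell in polyclonal, 3 rose and 4 fell in OT-I, and 6 rose and 4 fell in vehicle cells under repeated stimulation, and with NAC 5 rose and 5 fell. Lbr, a nuclear membrane protein with the same sterol reductase activity as Tm7sf2, fell from 161 ± 11.9 to 79.7 ± 4.23 RPKM in polyclonal cells (mean ± SD, n = 3, log2 change -1.01 with SE 0.0569 and adjusted p = 3.22e-12). It fell in vehicle cells from 163 ± 6.13 to 80.3 ± 1.86 RPKM (log2 change -1.01 with SE 0.0569 and adjusted p = 3.38e-12) and rose with NAC to 130.2 ± 0.765 RPKM (log2 change 0.69 with SE 0.0569 and adjusted p = 1.98e-09). Of 17 genes of sterol uptake, storage and efflux, 5 rose and 8 fell in polyclonal, 3 rose and 9 fell in OT-I, and 0 rose and 7 fell in vehicle cells, while with NAC 6 rose and 4 fell. Abcg1, a sterol exporter and known LXR target, fell in vehicle cells from 8.49 ± 1.38 to 1.24 ± 0.0915 RPKM (log2 change -2.08 with SE 0.0973 and adjusted p = 1.90e-13) and was at 2.66 ± 0.454 RPKM with NAC (log2 change 0.71 with SE 0.0973 and adjusted p = 2.92e-06). Soat2, a sterol esterification enzyme, fell in OT-I co-cultures from 27.6 ± 0.979 to 7.62 ± 0.5995 RPKM (log2 change -1.73 with SE 0.1396 and adjusted p = 2.18e-09). Melanocyte markers were also lower in the chronic co-cultures, and the part of melanoma cells in this fall was not tested.

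Among 14 genes of the isoprenoid branches, which use mevalonate products for prenylation, dolichol and ubiquinone, 6 rose and 3 fell in polyclonal, 5 rose and 3 fell in OT-I, and 6 rose and 5 fell in vehicle cells, and with NAC 4 rose and 5 fell. Of 21 other genes of fatty acid synthesis and activation 9 rose and 3 fell, 8 rose and 5 fell, and 8 rose and 4 fell in the same order, and with NAC 5 rose and 5 fell. Acsl3, an acyl-CoA synthetase of the endoplasmic reticulum and lipid droplets, rose with NAC from 7.43 ± 0.483 to 20.3 ± 0.487 RPKM (log2 change 1.34 with SE 0.0696 and adjusted p = 1.58e-12). Fatty acid oxidation, the opposing pathway, gave 6 higher and 3 lower of 19 genes in polyclonal, 0 higher and 11 lower in OT-I, and 8 higher and 5 lower in vehicle cells. With NAC 7 were higher, a share near the 38.5% of all genes, and 1 was lower. Etfb, a subunit of the electron transfer flavoprotein that takes electrons from this pathway, was the one that fell with NAC, from 160.01 ± 5.45 to 80.8 ± 2.97 RPKM (log2 change -0.98 with SE 0.1002 and adjusted p = 5.10e-08).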

How the data were processed

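The authors deposited linear RPKM values in 1 table, which has a column for each library. Trizol extraction and NEBNext Ultra libraries of poly(A)+ RNA were used, per the labels' protocols. Listed in the submitters' processing notes are the build mm9, HTSeq, edgeR and bcl2fastq 2.17, without saying what each did. Not given in the sources used here are aligner, annotation and strand setting. The members and lists were chosen with earlier results of these data known.

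The RPKM values gave back whole reads in 100% of genes (tolerance 0.001 reads), and with them depths of 5347355 to 25218890. Replicate pairs numbered 21. All exceeded sampling noise (the chi-square per gene was 1.52 at the lowest and 54.6 at the highest, with a minimum of 20 reads). Groups came from sample titles. The 12630 genes that reached RPKM 1 in at least 3 libraries were transformed to log2(RPKM + 1) and fitted with limma 3.58.1 in R 4.3.3, with 1 mean per group over all 21 libraries, an empirical Bayes trend, 14 residual degrees of freedom and two-sided tests. Fold changes are on that scale, where changes of low genes are understated, and SE is limma's moderated standard error. Recovery of reads and the fit were each run on simulated counts. For the fit these had the same dispersion for all genes and libraries and no library with raised low genes. Data with the wider spread of some replicates here were therefore not tested.

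Full statistics went to up to 4 sterol and 4 fatty acid enzymes per comparison with the largest absolute log2 change among those called with no overlap of libraries, to every sensing gene, and to the 3 highest and 3 lowest called members in each difference. Up to 2 genes by the same criteria were taken per further list. Some of these are not reported here, and other members were named to account for all 35. Lbr, Abcg1, Soat2, Acsl3 and Etfb were picked among the further genes after their values were seen.

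Same-numbered polyclonal libraries deviated together (r of 0.446, 0.629 and 0.168 across genes), which met the rule used, over 0.1 for all 3 pairs. Unlike numbers also exceeded 0.1 for acute replicate 1 with chronic replicate 3 (r = 0.569) and acute replicate 3 with chronic replicate 1 (r = 0.134). The other unlike-numbered pairs were negative. Both libraries numbered 2 had raised low genes, and the labels give no pairing, so pairing by number is not settled. In the other experiments r of same-numbered libraries was between -0.167 and 0.079, with no pairing. The replicate block was nevertheless set in every experiment. Promoter windows were read from RefSeq (GRCm38.p6), and exon overlaps from GENCODE M21. No mm9 genome was used. Alternatives tried were leaving out each library, rescaling to 1 median RPKM, a replicate block, a 2-fold threshold, fitting the compared groups alone, a pseudocount of 0.1, a filter of RPKM 5 or none, and other groupings of 4 genes. The 2 added fits were chosen after seeing the data, voom in limma on whole reads and one that left out the 3 libraries with raised low genes.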

Additional observations from a re-analysis of the deposited data

Results flagged for a closer look

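Differences of the chronic effect between experiments, tested in limma's fit across all genes, stood out for the members below, given on the log2(RPKM + 1) scale. Hmgcs1 differed by 1.48 (OT-I minus polyclonal, SE 0.188, adjusted p = 1.26e-06) and by 0.79 (vehicle minus polyclonal, SE 0.188, adjusted p = 0.00146), and was itself not called in polyclonal cells. Stard4 (1.497, SE 0.0901, adjusted p = 2.05e-11) and Fads2 (1.42, SE 0.0789, adjusted p = 6.05e-12) had higher changes in OT-I than in polyclonal cells. Insig2 had a lower change in OT-I cells than in polyclonal (-0.65, SE 0.0802, adjusted p = 7.98e-07) and vehicle cells (-1.07, SE 0.0802, adjusted p = 5.87e-10). So had Tm7sf2 (-0.35, SE 0.111, adjusted p = 0.0119, and -0.40, SE 0.111, adjusted p = 0.00424), although with voom on recovered reads its difference from polyclonal cells was not called (adjusted p = 0.0777).

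Fasn fell in vehicle cells and rose in the others, which gave 1.92 for OT-I minus vehicle (SE 0.0936, adjusted p = 8.77e-13) and -1.25 for vehicle minus polyclonal (SE 0.0936, adjusted p = 6.38e-10). Acat2 gave 1.43 (SE 0.116, adjusted p = 2.02e-09) and -0.93 (SE 0.116, adjusted p = 1.04e-06) in the same order, and Idi1 1.33 (SE 0.1299, adjusted p = 2.96e-08) and -0.86 (SE 0.1299, adjusted p = 1.29e-05). Scd1 rose most in vehicle cells, with -0.70 (SE 0.0899, adjusted p = 1.46e-06) and 0.64 (SE 0.0899, adjusted p = 4.73e-06). Acss2 gave 0.79 for vehicle minus polyclonal (SE 0.0873, adjusted p = 2.04e-07). Differences between these experiments and between their cells or cultures cannot be told apart.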

How the results depend on the processing

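Of 280 results for single members, 254 kept direction and side of the threshold with libraries rescaled to 1 median, 260 with only the compared groups fitted, 272 with voom, 268 without the 3 libraries with raised low genes, and 277, 279 and 280 with a pseudocount of 0.1, no filter and a filter of RPKM 5. The replicate block kept 274. Under this block Acaca was called in polyclonal cells (log2 change 0.19, adjusted p = 0.0472) and Acly in vehicle cells (0.10, adjusted p = 0.0489). No longer called were Acat2 in vehicle cells (-0.20, adjusted p = 0.0507), Lss (0.24, adjusted p = 0.0525) and Elovl1 (0.21, adjusted p = 0.0519) in OT-I minus polyclonal, and Dhcr7 in vehicle minus polyclonal (0.21, adjusted p = 0.0566), and no other member call changed. Rescaling reversed Sc5d (-0.045, NAC against vehicle chronic), Sqle (-0.15) and Elovl5 (-0.044, both NAC against vehicle acute). It also changed the counts of sterol enzymes called lower from 2 to 1 (polyclonal), 3 to 1 (vehicle) and 3 to 5 (NAC against vehicle acute), and of fatty acid enzymes from 1 to 0 lower (OT-I), 4 to 1 higher and 3 to 6 lower (NAC against vehicle acute). Sterol enzymes called lower went from 2 to 1 in a fit of the polyclonal groups alone and from 3 to 1 in vehicle cells with a pseudocount of 0.1, and members lower in OT-I minus polyclonal from 2 to 1 with voom. Leaving out 1 library gave 1 to 2 sterol enzymes lower in polyclonal cells (1 without acute replicate 3 or chronic replicate 2), 1 to 3 in vehicle cells and 1 to 4 for NAC against vehicle acute. Requiring a 2-fold change left, higher and lower, 1 and 0 sterol and 1 and 1 fatty acid enzymes in polyclonal cells, 7 and 0, and 3 and 0, in OT-I cells, 0 and 0, and 1 and 0, in vehicle cells, 0 throughout for NAC against vehicle chronic, and 1 and 0, and 1 and 0, against vehicle acute. Of all 12630 genes, 929 and 724 passed in polyclonal, 368 and 352 in OT-I and 745 and 595 in vehicle cells. For NAC, 741 and 432 passed against vehicle chronic and 1060 and 592 against vehicle acute. With the same threshold the differences gave 9 and 0 members (OT-I minus polyclonal), 10 and 1 (OT-I minus vehicle) and 0 and 1 (vehicle minus polyclonal). All genes gave 690 and 1116, 819 and 1042, and 733 and 829 in that order. Most member changes were thus under 2-fold.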
